A study of Mus musculus with 33 samples.

Results

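Loss of ZMYND8 in activated CH12 cells was examined as the comparison of 6 activated knockout (KO) libraries with 6 activated wild-type (WT) libraries, 12 of the 33 samples of the series. The libraries were chosen by their titles alone. The KO libraries came from the lines labelled ZMYND8 KO1 clone and ZMYND8 KO2 clone. The WT libraries came from the line labelled WT, called parental WT here, and from a line labelled WT clone. Each line gave 3 cultures, grown for 48 h under activating conditions, and the same 4 lines without activation gave another 12 libraries that are used below for comparison. The labels do not name the stimulus, so the 12 activated libraries share an activation whose agent is not known here. They describe the 3 cultures as biological repeats and say nothing on how far these are separate, so p-values measure only the spread between these cultures. Each KO line is 1 clone, and a difference between 2 KO and 2 WT lines can hold lasting differences between clones that cannot be told apart from the loss of ZMYND8.

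CH12 cells are a mouse B cell lymphoma line; stimulated cultures can switch from making IgM to making IgA. ZMYND8 is a chromatin reader that binds acetylated and methylated histone tails and is known to act with corepressor complexes at promoters and enhancers. The title of the series places it at the enhancers of the immunoglobulin heavy chain (Igh) locus, where the 3' regulatory region controls class switching. Enhancers are themselves transcribed, and the deposited tables count such RNA over numbered genomic regions beside annotated transcripts.

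Total RNA depleted of ribosomal RNA was sequenced, and the activated libraries held 29.4 to 33.9 M estimated counts. Numbered regions took 4.40% to 5.04% of the counts in KO and 4.95% to 5.48% in WT. More than 50% of that in each library is 1 region over a 7SL RNA gene, which took 2.24% to 2.84% in KO and 3.01% to 3.47% in WT, without overlap. A gene value below is the sum of the counts of all regions that lie wholly inside 1 RefSeq gene. It describes RNA from parts of a gene, exonic or intronic and of either strand, which the tables do not tell, and is no measure of mature mRNA. Gene values took 1.00% to 1.18% of the counts in KO and 0.915% to 1.09% in WT. Levels are in CPM, counts scaled to a common library size by trimmed means over all targets. They are given as mean ± SD with n = 6, that is 3 cultures of each of 2 lines, unless stated. Log2 changes of KO against WT carry their standard error.

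Zmynd8 itself, on chromosome 2 from 165784152 to 165898981 in GRCm38, was measured by 6 regions inside its span. Its gene value was 2.28, 2.55 and 2.01 CPM in parental WT, 2.42, 2.11 and 3.23 CPM in the WT clone, 3.03, 4.27 and 3.63 CPM in KO1, and 2.81, 4.24 and 2.86 CPM in KO2. RNA from these parts of the locus was thus present in every KO library, and the groups overlapped. The log2 change was 0.52 ± 0.16 (edgeR quasi-likelihood test, adjusted p = 0.0418), and none of the 4 pairings of 1 KO line with 1 WT line called it. The call did not survive the removal of any of 8 libraries (log2 0.41 to 0.56). The labels do not say which part of the gene was altered, so these values do not check the loss of the protein.

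Across the libraries, more regions and gene values were called higher than lower in KO, while annotated transcripts were called about equally in both directions. Of 4510 gene values tested, 286 were called higher (6.34%) and 105 lower (2.33%) in KO at an adjusted p under 0.05. Of 11264 regions, 639 were called higher (5.67%) and 152 lower (1.35%). Of 49806 transcripts, 1501 were called higher (3.01%) and 1694 lower (3.4%), and against parental WT alone 823 higher and 1241 lower. The median log2 change was 0.07 over gene values, 0.09 over regions and -0.01 over transcripts. When regions were scaled by themselves, the median over regions moved to -0.03 and the calls were 683 higher and 400 lower, and gene values scaled by themselves gave 253 higher and 155 lower.

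The 3 cultures of a line are not separate lines, and the counts of calls fell when the unit was the line. With the counts of each line summed, 175 gene values were called higher and 78 lower, 51 regions higher and 1 lower, and 116 transcripts higher and 97 lower. Calls that held in the same direction in all 4 pairings of lines were made for 39 gene values that rose (0.865% of those tested) and 12 that fell (0.266%), and for 129 regions that rose (1.15%) and 13 that fell (0.115%). Among gene values, the higher count was 22 without KO1 replicate 1 and 25 without parental WT replicate 3 or WT clone replicate 2. The lower count was 4 without KO1 replicate 1, 6 without KO1 replicate 3 or parental WT replicate 1 or 2, and 7 without WT clone replicate 1 or KO2 replicate 1. Among regions, the higher count was 85 without parental WT replicate 1, and the lower was 6 to 8 without KO1 replicate 1 or 2, KO2 replicate 2 or parental WT replicate 1 or 2. In 166 gene values every KO library lay above every WT library (3.68%), and in 52 every KO library lay below (1.15%). The genes described next are drawn from those called in all 4 pairings.

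Among genes that rose, Ms4a4a, which encodes a membrane protein of the CD20 family, had the highest log2 change of the gene values called in all 4 pairings and at or above 2 CPM in a genotype, once loci named only Gm or Rik are set aside. Its gene value was 0.670, 0.764 and 0.772 CPM in parental WT, 0.472, 0.335 and 0.610 CPM in the WT clone, 4.96, 4.62 and 3.00 CPM in KO1, and 8.40, 4.57 and 5.63 CPM in KO2. Every KO library lay above every WT library, and the fitted change was 8.64-fold (log2 3.11 ± 0.22, adjusted p = 2.27e-10, edgeR). A neighbouring region over an end of Ms4a6c, chosen after its values were seen, had 11.2 ± 3.58 CPM in KO and 2.43 ± 0.833 CPM in WT. Adamts14, which encodes a protease that trims procollagen, was at 7.36, 8.57 and 6.10 CPM in parental WT, 5.42, 4.45 and 3.53 CPM in the WT clone, 24.6, 21.9 and 15.6 CPM in KO1, and 35.1, 26.2 and 29.6 CPM in KO2. The groups did not overlap, and the log2 change was 2.13 ± 0.15. Almost all of it, 99.9% of the difference in CPM, lay in 1 region inside the gene.

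Among the gene values that rose in all 4 pairings were 3 members of the lysosome and endosome list described further on. Glb1, the lysosomal beta-galactosidase, lay between 6.01 and 16.5 CPM in KO libraries and between 2.94 and 4.10 CPM in WT libraries (log2 1.50 ± 0.16). Vps41, a subunit of the complex that fuses late endosomes with lysosomes, had 2.08 ± 0.462 against 0.254 ± 0.120 CPM (log2 2.99 ± 0.26). Tbc1d5, which switches off the late endosomal GTPase Rab7, had 7.78 ± 2.25 against 2.19 ± 0.844 CPM (log2 1.80 ± 0.22). In none of these 3 genes did the KO and WT libraries overlap. The leading region held 98.7% of the difference in CPM in Glb1, 93.7% in Vps41 and 65.7% in Tbc1d5.

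Other genes called in all 4 pairings had varied roles. Tigit, which encodes an inhibitory receptor known from T and NK cells, lay between 1.62 and 4.50 CPM in KO and between 0.426 and 0.850 CPM in WT (log2 1.91 ± 0.22). Hvcn1 encodes a voltage-gated proton channel that associates with the B cell receptor, and its gene value ran from 15.0 to 22.1 CPM in KO, against 5.83 to 9.14 CPM in WT (log2 1.32 ± 0.16). Rad51b, a gene of homologous recombination, was at 14.9, 15.2 and 16.5 CPM in parental WT, 17.0, 16.1 and 16.1 CPM in the WT clone, 31.6, 32.5 and 30.9 CPM in KO1, and 35.0, 37.4 and 31.6 CPM in KO2. Its replicates were close in every line, and the log2 change was 1.05 ± 0.14. Unlike Adamts14, its rise was spread: 6 of its 14 tested regions were called higher, and the leading region held 31.0% of the difference. Irf2, a repressor and activator of interferon-responsive genes, had 3.03 ± 0.372 against 1.57 ± 0.145 CPM (log2 0.95 ± 0.14). The other genes the naming rule selected, Ccdc38, Ubxn11, Pstpip2, Sypl and Fam149b, had log2 changes from 1.25 to 2.12.

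**Figure D1:**
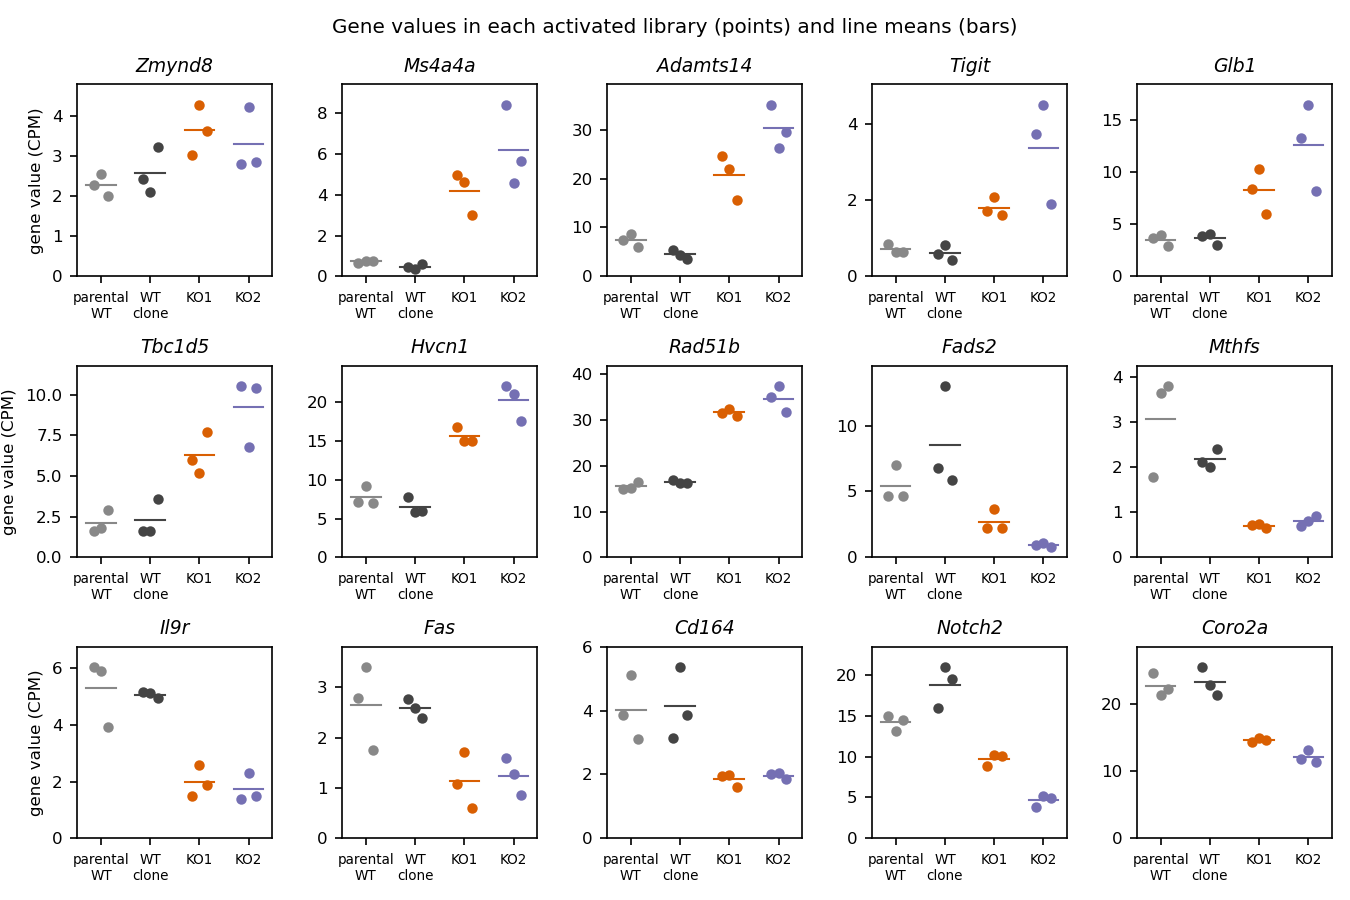
Gene values (CPM, linear axes from 0) of 15 genes in each activated library of parental WT, the WT clone, KO1 and KO2; points are the 3 cultures of a line and bars their mean. The KO and WT points overlap for Zmynd8, while Glb1 lies at 6.01 to 16.5 CPM in KO and 2.94 to 4.10 CPM in WT, and Notch2 is lower in KO2 than in KO1.

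Fewer gene values fell in all 4 pairings. Of the 12, 3 stayed below 2 CPM in both genotypes: App (log2 -2.65 ± 0.29), Adgrl2 (-1.85 ± 0.29) and Ifi203, which is described further on; the first 2 were added after their values were seen. The other 9 follow. Fads2, a fatty acid desaturase, lay between 0.792 and 3.66 CPM in KO and between 4.64 and 13.0 CPM in WT (log2 -2.10 ± 0.19). Mthfs, an enzyme of folate metabolism, was at 1.77, 3.65 and 3.80 CPM in parental WT and 2.11, 1.99 and 2.40 CPM in the WT clone, against 0.722, 0.737 and 0.645 CPM in KO1 and 0.698, 0.811 and 0.924 CPM in KO2. All KO values lay below 1 CPM and all WT values above it (log2 -1.76 ± 0.23). Il9r, the interleukin-9 receptor, was at 6.04, 5.90 and 3.92 CPM in parental WT, 5.16, 5.11 and 4.94 CPM in the WT clone, 1.47, 2.60 and 1.86 CPM in KO1 and 1.40, 2.31 and 1.48 CPM in KO2. Its groups were also separate (log2 -1.48 ± 0.16), and 99.8% of the difference lay in 1 region.

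Fas, the death receptor of activated lymphocytes, had 1.19 ± 0.426 CPM in KO and 2.61 ± 0.539 CPM in WT (log2 -1.14 ± 0.21). Cd164, which encodes a sialomucin of cell adhesion, was measured by 1 region at 1.91 ± 0.160 against 4.08 ± 0.960 CPM (log2 -1.09 ± 0.19). Coro2a, a coronin found in a corepressor complex, had 13.3 ± 1.50 against 22.9 ± 1.72 CPM (log2 -0.79 ± 0.11), with the lowest WT library at 21.2 CPM and the highest KO library at 14.8 CPM. Pakap, Vash1 and Tmem154 had log2 changes of -1.03, -0.98 and -0.87. The naming rule gave 9 genes on the lower side, and 14 on the upper side are reported here.

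**Figure D2:**
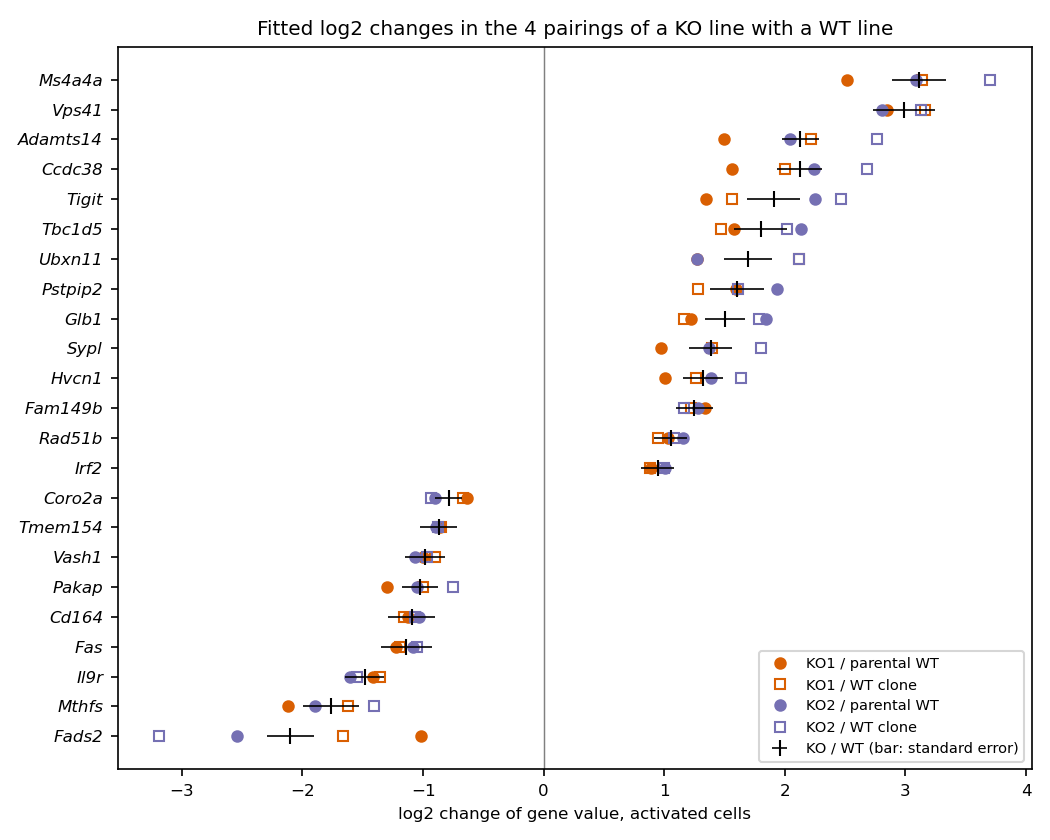
Fitted log2 changes of the 23 named genes called in all 4 pairings, by gene; orange and purple symbols are the 4 pairings of KO1 or KO2 with parental WT (filled) or the WT clone (open), and black ticks with bars the change of both KO against both WT lines with its standard error. All 4 symbols of a gene lie on 1 side of 0, as the choice of genes requires, and Tmem154, Cd164 and Irf2 show little spread while Fads2 has the widest.

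The other genes were read through 19 gene lists. Over all gene values tested, 8.67% were called in either direction. Where a list had called members, all are named, so those beyond the 5 of smallest p were named after their values were seen. Among B cell identity genes, 10 of 30 measured rose and none fell, with a median log2 change of 0.32 against 0.07 over all gene values. Blk, a Src family kinase that transmits B cell receptor signals, had 4.32 ± 1.70 CPM in KO and 1.59 ± 0.774 CPM in WT (log2 1.49 ± 0.17). Tcf4 and Ebf1, transcription factors of B cell development, had log2 changes of 0.87 ± 0.22 and 0.76 ± 0.21, Ralgps2 0.64 ± 0.16 and Bach2, a repressor that delays plasma cell differentiation, 0.53 ± 0.15. Ebf1 was at 15.7, 18.4 and 29.9 CPM in parental WT, 20.9, 14.4 and 28.4 CPM in the WT clone, 34.6, 31.6 and 43.9 CPM in KO1, and 32.9, 32.0 and 42.1 CPM in KO2. Replicate 3 was the highest in each line, and all KO libraries stayed above all WT libraries. Of the 20 tested regions inside Ebf1 only 1 was called, and it held 49.7% of the difference.

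The remaining rises of the list were Cd180, Pou2af1, Bank1, Ikzf1 and Cd24a, at log2 changes from 0.47 to 0.99. None of the 10 was called in all 4 pairings. The calls of Ebf1 (log2 0.65 to 0.71), Bach2 (0.48 to 0.50), Cd180 (0.46 to 0.57), Bank1 (0.49 to 0.68), Ikzf1 (0.39 to 0.48), Cd24a (0.75 to 1.02) and Pou2af1 (0.52 to 0.63) were lost when any of 5, 3, 7, 7, 8, 8 and 9 libraries was left out. Pax5, the factor that maintains B cell identity, stood at 11.8 in KO against 12.2 CPM in WT and was not called (log2 -0.04 ± 0.19).

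In B cell receptor signalling, 7 of 50 measured genes rose and 1 fell (median log2 change 0.13). Besides Blk and Hvcn1, Nfatc1, a calcium-dependent transcription factor, rose from 12.0 ± 2.16 to 25.3 ± 5.63 CPM (log2 1.06 ± 0.16) without overlap. Prkce and Rasgrp3, which carry diacylglycerol signals, had log2 changes of 1.00 ± 0.21 and 0.63 ± 0.14. Inpp5d, a phosphatase that dampens the receptor signal, rose by 0.63 ± 0.17 on the log2 scale, and its call was lost without either of 2 WT libraries, parental WT replicate 1 and WT clone replicate 2 (0.55 in each case). Syk, the kinase just below the receptor, was called lower (-0.62 ± 0.19), and that call was lost without any of 8 libraries (-0.64 to -0.50).

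The plasma cell list had 5 rises and 1 fall among 21 measured genes, with a median log2 change of 0.35. Prdm1 encodes Blimp-1, the repressor that drives plasma cell differentiation. Its level was low, at 0.385, 0.381 and 0.208 CPM in parental WT, 0.176, 0.0912 and 0.181 CPM in the WT clone, 0.502, 0.437 and 0.590 CPM in KO1 and 0.772, 0.330 and 0.763 CPM in KO2. The groups overlapped (log2 1.32 ± 0.25), and against parental WT alone the change was 0.79 and not called. Irf4, which acts above Prdm1, did not overlap, at 2.90 to 4.15 CPM in KO and 1.57 to 2.60 CPM in WT (log2 0.89 ± 0.19), and was also not called against parental WT alone (0.72). Zbtb20 had a log2 change of 0.92 ± 0.17, with 4 of its 12 tested regions called higher. Cd93 (1.66 ± 0.45) lost its call without any of 4 libraries (1.46 to 1.57), and Atf6, a stress sensor of the endoplasmic reticulum, was called lower (-0.60 ± 0.17), lost without any of 3 libraries (-0.56 to -0.49). Tigit is the fifth riser of this list.

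Among class switch recombination genes, 2 of 20 measured rose and none fell, a share of 10.0% near that of all gene values, with a median log2 change of 0.00. The risers were Rad50, a DNA end-binding repair protein, and Xrcc1, a scaffold of single-strand break repair, at log2 0.59 ± 0.18 and 0.60 ± 0.18. Their calls were lost without any of 6 libraries (0.51 to 0.61) and any of 9 (0.53 to 0.61). Only 20 of the 69 listed genes could be tested.

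Targets of CD40 and NF-kB split: of 30 measured, 4 rose and 3 fell (median log2 change -0.05). Birc3 and Birc2, neighbouring genes for inhibitors of apoptosis, moved in opposite directions. Birc3 had 4.85 ± 0.498 CPM in KO and 2.83 ± 0.569 CPM in WT (log2 0.79 ± 0.15), while Birc2 had 3.70 ± 0.758 against 7.03 ± 1.50 CPM (log2 -0.92 ± 0.16). Traf1 and Traf2, adaptors below CD40, rose by 0.85 ± 0.18 and 1.15 ± 0.24 on the log2 scale, and Bcl2, a survival protein, by 0.68 ± 0.18. Bcl2a1b, another member of that survival family, fell (-1.15 ± 0.19), but its near-identical copies can share reads, so its value is uncertain. Among 18 measured genes of apoptosis and the p53 response, 3 rose and 2 fell (median 0.01). These were Fas, Birc2, Birc3, Bcl2 and Trp53inp1, a p53 target at 0.722 against 0.233 CPM (log2 1.65 ± 0.24).

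Cytokine receptor and JAK-STAT genes gave 3 rises and 2 falls among 29 measured (median 0.07). Il10 had a log2 change of 3.18 ± 0.36, but its levels were 0.549, 0.726 and 1.13 CPM in parental WT, 0.0955, 0 and 0.0290 CPM in the WT clone, 0.913, 1.37 and 2.23 CPM in KO1 and 1.71, 1.34 and 2.77 CPM in KO2. The WT lines differed from each other (log2 -4.18, edgeR adjusted p = 0.00403), and against parental WT alone Il10 was not called (log2 1.09). Il7r and Il5ra, receptors of early and activated B cells, were called higher at 1.52 ± 0.42 and 0.65 ± 0.20, lost without any of 4 (1.22 to 1.47) and any of 7 libraries (0.52 to 0.65). Csf2rb, the beta chain shared by the receptors for interleukin-3, interleukin-5 and GM-CSF, fell (-0.71 ± 0.19), as did Il9r. For TGF-beta and SMAD genes, 3 of 21 rose and none fell (median 0.12): Runx1 (0.63 ± 0.16), a partner of SMAD proteins at the alpha switch promoter, Ltbp1 (1.02 ± 0.28) and Skil (0.69 ± 0.20), an inhibitor of SMAD signalling. Ltbp1 and Skil lost their calls without any of 5 (0.87 to 0.96) and any of 6 libraries (0.56 to 0.69).

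The lysosome and endosome list held 6 rises and 1 fall among 25 measured genes (median 0.25), and 3 of the rises were called in all 4 pairings. Besides Vps41, Tbc1d5 and Glb1 these were Ctsc, a lysosomal protease (1.73 ± 0.27, but 1.05 and not called against parental WT alone), Snx29 (0.65 ± 0.15) and Mcoln2, an endolysosomal cation channel (0.61 ± 0.17), whose call was lost without any of 8 libraries (0.52 to 0.60). Rab11fip3, an effector of recycling endosomes, fell (-1.21 ± 0.21), and with KO1 alone its change of -0.72 was not called. Among 30 lipid metabolism genes, none rose and 3 fell: Fads2, Rxra, a retinoid receptor (-1.09 ± 0.28), and Mgll, a monoacylglycerol lipase (-0.66 ± 0.20), whose call was lost without any of 8 libraries (-0.68 to -0.57). The median of that list was -0.06.

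In the interferon list, 2 of 18 rose and 2 fell (median 0.00). Ifi203, an interferon-inducible gene of the DNA-sensing family, had 0.603 ± 0.152 CPM in KO and 1.86 ± 0.356 CPM in WT (log2 -1.62 ± 0.18) without overlap, while Irf2 and Ly6e (0.60 ± 0.14) rose. Ifih1, an RNA sensor, was called lower at 0.0577 against 0.183 CPM, lost without any of 3 libraries (log2 -1.70 to -1.59). Motility, adhesion and homing genes gave 1 rise, Dock9 (0.92 ± 0.17), and 2 falls, Ccr6 (-0.97 ± 0.21) and Plxnb2 (-1.06 ± 0.24), among 54 measured, a share of 5.56%. The Notch list had 1 call in 19: Notch2, needed for marginal zone B cells, at 15.0, 13.2 and 14.5 CPM in parental WT, 15.9, 21.0 and 19.5 CPM in the WT clone, 8.80, 10.2 and 10.1 CPM in KO1 and 3.81, 5.24 and 4.89 CPM in KO2. All KO libraries were below all WT libraries (log2 -1.28 ± 0.13), KO2 was below KO1 (log2 -1.06, edgeR adjusted p = 0.00948), and 99.4% of the difference lay in 1 of its regions.

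The other lists had shares of calls below the 8.67% of all gene values. Cell cycle and DNA replication had 1 rise, E2f2 (0.67 ± 0.18; lost without WT clone replicate 2, 0.57, or KO2 replicate 1, 0.61), and 1 fall, Ccnd2 (-1.25 ± 0.22), among 32. MYC and ribosome biogenesis had 1 fall among 17, Gtpbp4 (-0.85 ± 0.26), and with KO1 alone its log2 change was 0.21, since KO1 was at 26.5 ± 3.44 and KO2 at 6.07 ± 3.40 CPM (n = 3 each). That call was also lost without any of 8 libraries (-0.91 to -0.64). Myc itself stood at 10.3 against 9.94 CPM and was not called. Hypoxia and glycolysis (Pfkp, 0.98 ± 0.29, lost without any of 8 libraries, 0.86 to 1.01) and transporters (Abcc4, 1.09 ± 0.20) had 1 rise each among 14 and 30. None of 10 MHC class II and presentation genes was called by edgeR, by DESeq2 or at an unadjusted p under 0.05 (0 in each case), the log2 changes running from -0.42 to 0.42. Of 19 genes for ZMYND8 partners and the NuRD complex, Zmynd8 alone was called. With the counts of each line summed, the calls of Zmynd8, Bach2, Cd180, Cd24a, Pou2af1, Ikzf1, Rasgrp3, Syk, Prdm1, Zbtb20, Atf6, Rad50, Xrcc1, Il10, Il7r, Runx1, Mcoln2, Rxra, Mgll, Ly6e, Ifih1, Plxnb2, Pfkp, Gtpbp4, Ptpn12 and Abr were lost. Against parental WT alone, the 34 calls of Atf6, Bach2, Bank1, Cd180, Cd24a, Cd93, Ctsc, E2f2, Ebf1, Gtpbp4, Ifih1, Ikzf1, Il10, Il5ra, Il7r, Inpp5d, Irf4, Mcoln2, Mgll, Pou2af1, Prdm1, Prkce, Ptpn12, Ralgps2, Rasgrp3, Runx1, Rxra, Skil, Snx29, Syk, Tcf4, Xrcc1, Zbtb20 and Zmynd8 were lost. With KO1 alone, the 30 calls of Abr, Atf6, Bach2, Bank1, Bcl2, Ccnd2, Cd180, Cd24a, Cd93, Csf2rb, E2f2, Ebf1, Ifih1, Ikzf1, Il5ra, Inpp5d, Ltbp1, Mgll, Pfkp, Pou2af1, Ptpn12, Rab11fip3, Rad50, Rasgrp3, Runx1, Skil, Snx29, Syk, Tcf4 and Zmynd8 were lost.

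**Figure D3:**
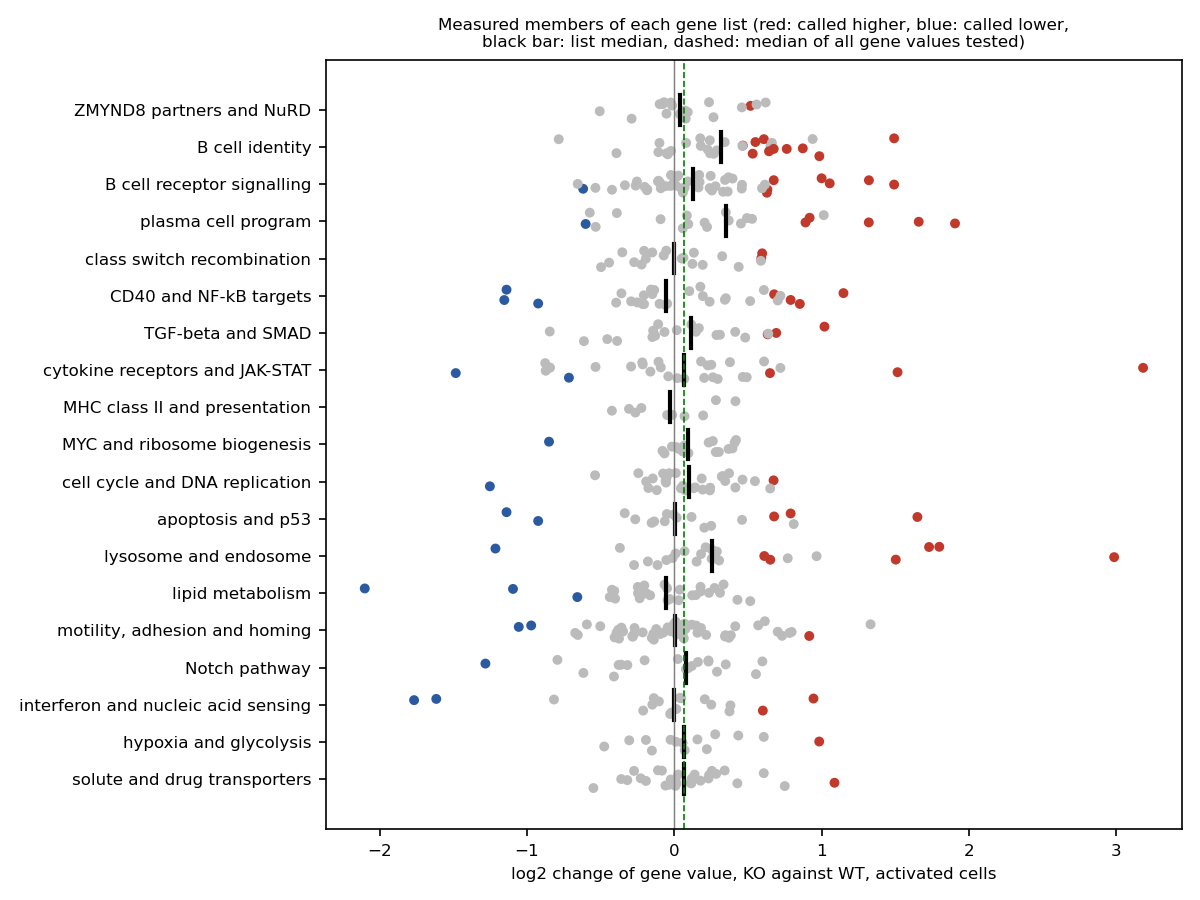
Log2 changes (KO against WT, activated cells) of every measured member of the 19 gene lists, one row per list; red points were called higher, blue lower and grey not called, the black bar is the list median and the dashed line the median of all gene values, 0.07. B cell identity, the plasma cell program and the lysosome list have the highest medians, 0.32, 0.35 and 0.25.

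For many genes the change was that of a single stretch of RNA. Of 62 named genes with more than 1 region, 20 had over 90% of their difference in CPM in 1 region and 13 had under 50% in the leading one. Of 325 genes with a called region inside them, 254 had regions called higher only, 71 lower only and 0 both. Most of the 325 had only 1 called region and so could not show both directions. The genes with 4 or more regions called higher were Rad51b, Zbtb20 and the long noncoding RNA loci Gm31718 (6 regions) and Gm12610 (5 regions), both chosen after their values were seen. Gm31718, on chromosome 8, was at 10.2, 14.1 and 13.8 CPM in parental WT, 9.18 CPM at the lowest and 10.7 CPM at the median in the WT clone, 43.5, 45.5 and 43.4 CPM in KO1 and 50.2, 52.6 and 48.2 CPM in KO2 (log2 2.04 ± 0.13). Every KO library there exceeded the highest WT library more than 3-fold.

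Of the called regions, 318 of those that rose lay inside 1 gene, 199 outside genes and 122 across a gene end or several genes, and of those that fell 75, 35 and 42. These were 4.58% and 1.08% of the tested regions inside genes, and 7.38% and 1.3% of those outside genes. The 7SL region, which holds most region counts and is lower in KO, moves with these comparisons, and its part in them was not tested. Outside genes, the highest change among regions called in all 4 pairings was at chr9:61168735-61169566, 23476 bases from the nearest annotated gene. It had 0.0578, 0.157 and 0.119 CPM in parental WT, 0.0945, 0.122 and 0.0581 CPM in the WT clone, 5.18, 5.98 and 6.05 CPM in KO1, and 6.10, 4.86 and 6.37 CPM in KO2. It was near 0 in both WT lines and at about the same level in both KO lines (log2 5.79 ± 0.48, adjusted p = 5.96e-07, edgeR). At chr10:60165989-60172001, 3598 bases from Gm51802, KO reached 22.5 ± 1.22 CPM against 1.53 ± 0.276 CPM in WT (log2 3.88 ± 0.13). At chr9:42127864-42128442, 3567 bases from Sorl1, a sorting receptor gene, it was 1.91 ± 0.484 against 0.126 ± 0.0376 CPM (log2 3.85 ± 0.27).

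Some regions called higher lay close together. On chromosome 19, a pair of clusters of 5 regions each, from 14217010 to 14258945 and from 14340707 to 14371996, summed to 7.56 against 0.604 CPM and to 8.15 against 0.832 CPM. Next to Pvt1, a noncoding neighbour of Myc, 5 regions summed to 9.61 against 4.07 CPM, while the gene value of Myc was not called. Near Bhlhe41, a transcriptional repressor gene, 4 regions summed to 8.06 against 2.31 CPM. The summed levels are descriptions, since only called regions entered them.

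The immunoglobulin loci held changes in both directions, at short distance from each other. Over the lambda light chain genes Iglc1, Iglj1 and Iglc3, the region chr16:19059420-19065940, chosen after its values were seen, was at 121, 87.8 and 99.1 CPM in parental WT, 77.5, 76.6 and 73.9 CPM in the WT clone, 14.9, 12.9 and 14.3 CPM in KO1 and 12.5, 8.03 and 10.7 CPM in KO2. It fell 7.30-fold (log2 -2.87 ± 0.14, adjusted p = 3.49e-10, edgeR). On its flank, at 33311 to 51175 bases, 3 regions outside genes rose: from 0.727 to 14.8 CPM, from 0.585 to 19.8 CPM and from 2.75 to 15.8 CPM, with log2 changes of 4.34 ± 0.18, 5.08 ± 0.25 and 2.53 ± 0.21. On the other side, 3 further regions between Gm18748 and Iglc4 rose as well, with log2 changes of 1.59, 3.12 and 1.97. All 7 of these regions were called in all 4 pairings, and all 7 were also called in the same direction in unactivated cells. Beyond Iglc4, the region over Iglc2 and 2 regions at Gm35545 were called lower, with log2 changes of -0.71, -0.98 and -0.77, but not in all 4 pairings. Light chain transcripts could not be matched to genes here, so these values do not give the level of lambda mRNA.

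At the Igh locus, RNA summed over the 3' regulatory region was 7.24, 5.93 and 6.49 CPM in parental WT, 8.80, 6.85 and 7.23 CPM in the WT clone, 40.6, 27.4 and 24.3 CPM in KO1 and 42.9, 28.3 and 26.1 CPM in KO2, a ratio of 4.46 (exact permutation test of 6 against 6 libraries, two-sided p = 0.00216, the smallest it allows). Over 2 against 2 lines the smallest two-sided p is 0.333. Replicate 1 was the highest in each of the 4 lines. Most of this sum came from 4 numbered regions, at 29.8 against 6.18 CPM. Of the named enhancer elements in it, hs3b rose from 0.0120 to 0.666 CPM. The element hs3a was not called (1.08 against 0.852 CPM, log2 0.33 ± 0.22), hs4 stood at 0.0299 against 0.0415 CPM and hs12 at 0. The mu enhancer element, which is not part of the sum, was not called (53.3 against 58.8 CPM, log2 -0.15 ± 0.11). The region inside Igha, just beyond, did not differ by more than its spread (9.12 ± 0.589 against 9.34 ± 1.08 CPM), and near the gamma constant genes chr12:113314446-113315182 was lower, at 9.85, 10.5 and 14.4 CPM in parental WT, 8.53, 7.06 and 13.9 CPM in the WT clone, 0.520, 1.58 and 3.06 CPM in KO1 and 0.794, 1.67 and 1.36 CPM in KO2 (log2 -2.85 ± 0.35). With counts summed per line this region was not called (-2.86). Regions over Ighg1 (-1.82 ± 0.24) and near Ighg3 (-2.38 ± 0.37) were called lower too, and the one over Ighm and the J segments was called higher (0.71 ± 0.09). The region near Ighg3 was low, at 0.0813 against 0.434 CPM, and was not called for KO2 against the WT clone (log2 -1.74). The region over Ighm was not called for KO1 against parental WT (log2 0.35). The other region on the lower side, chr17:13166943-13167514, had 2.04 ± 0.400 against 5.26 ± 1.20 CPM (log2 -1.35 ± 0.11), and it too was not called over lines (-1.37).

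**Figure D4:**
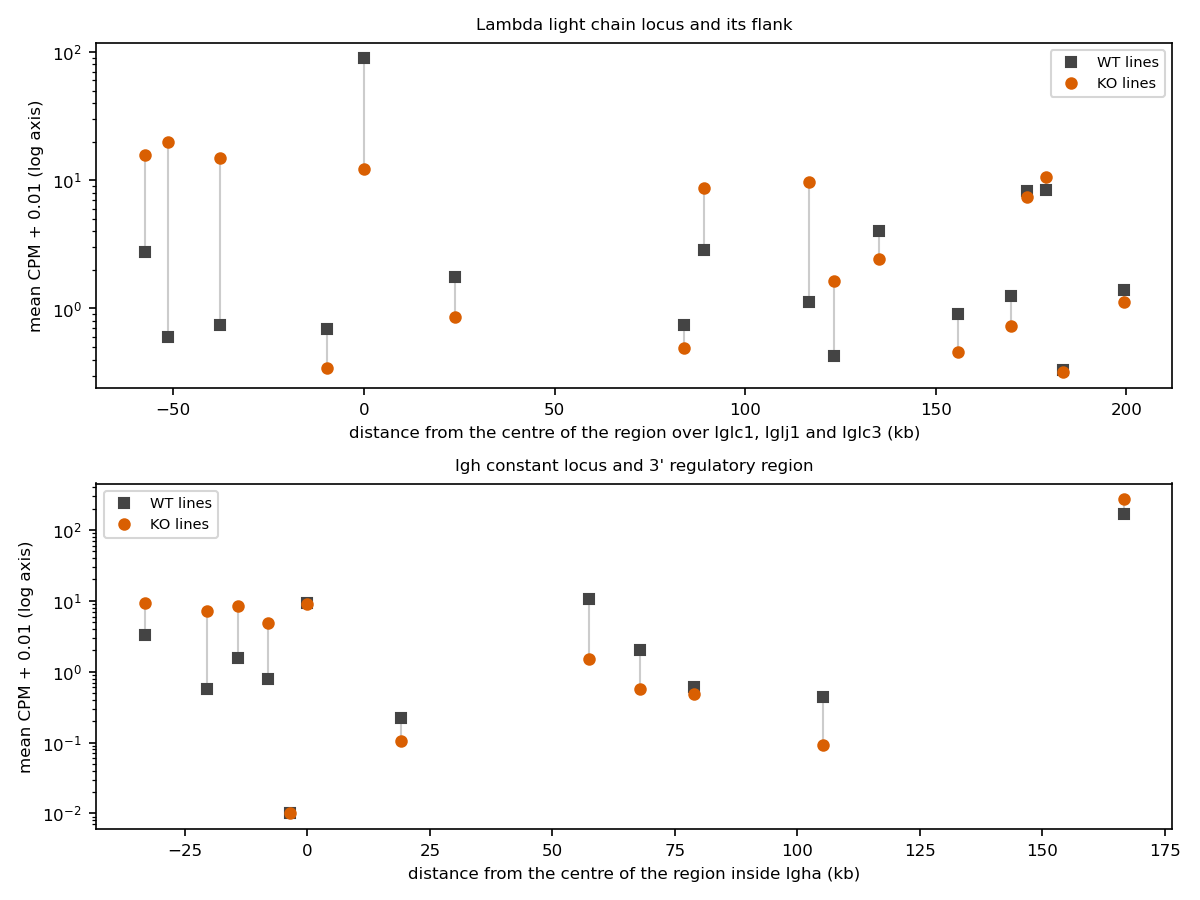
Mean level of each region in KO (circles) and WT (squares) activated libraries, as CPM + 0.01 on a log axis, against its distance in kb, toward higher coordinates, from the region over Iglc1, Iglj1 and Iglc3 (upper plot) or inside Igha (lower plot). In the upper plot WT stands at 89.3 and KO at 12.2 CPM at 0 kb, and of the 4 regions to the left the 3 farthest are higher in KO while the nearest (KO 0.331, WT 0.676 CPM) was not called; in the lower plot 4 regions left of Igha are higher in KO and the remaining one is at 0 in both.

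Some called regions hold the start of a gene or a microRNA, and their sequences are shown because the measured RNA covers them. A RefSeq promoter window, from 250 bases before to 50 bases after a start, lay wholly inside a called region in 45 cases, 36 in regions called higher and 9 lower, and 12 lay in regions called in all 4 pairings. Printed below are those of Mndal, an interferon-inducible gene next to Ifi203 (chr1:173880138-173880437, minus strand), Gm51802 (chr10:60162342-60162641, minus strand), which neighbours the region on chromosome 10 described above, and Gm31718 (chr8:126853199-126853498, minus strand). They are from RefSeq GRCm38.p6, 5' to 3', and were chosen after their values were seen. Capitals mark matches on either strand to the octamer ATGCAAAT, to a form of the interferon response element (GAAA, any 2 bases, GAAA), to the AP-1 motif TGANTCA and to the PU.1 motif GAGGAAGT.
Mndal: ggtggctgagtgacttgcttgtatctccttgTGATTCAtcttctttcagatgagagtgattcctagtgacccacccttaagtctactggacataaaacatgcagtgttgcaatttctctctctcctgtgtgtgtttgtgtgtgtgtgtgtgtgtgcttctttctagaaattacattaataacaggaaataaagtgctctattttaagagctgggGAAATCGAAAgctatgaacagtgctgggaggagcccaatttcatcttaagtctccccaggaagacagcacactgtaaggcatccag
Gm51802: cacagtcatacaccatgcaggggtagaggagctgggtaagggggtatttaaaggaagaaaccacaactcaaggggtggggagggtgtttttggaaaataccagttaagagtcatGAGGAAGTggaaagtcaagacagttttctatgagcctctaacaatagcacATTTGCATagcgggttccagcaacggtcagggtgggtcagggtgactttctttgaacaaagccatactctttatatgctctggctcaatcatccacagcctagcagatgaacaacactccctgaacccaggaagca
Gm31718: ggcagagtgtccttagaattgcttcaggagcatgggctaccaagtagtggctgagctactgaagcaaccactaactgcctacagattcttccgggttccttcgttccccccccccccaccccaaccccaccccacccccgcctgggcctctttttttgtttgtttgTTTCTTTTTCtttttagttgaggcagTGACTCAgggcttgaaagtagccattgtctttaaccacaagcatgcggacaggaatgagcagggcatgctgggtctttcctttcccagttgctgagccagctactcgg
In the Mndal window the capitals are an AP-1 match and an interferon response element match. The Gm51802 window has a PU.1 and an octamer match, and the Gm31718 window has an interferon response element and an AP-1 match. Of 32851 RefSeq promoter windows, 1.74% hold the octamer, 3.44% the interferon response element, 7.81% the AP-1 motif and 3.20% the PU.1 motif. Of the 45 windows inside called regions, 5 hold the octamer, 5 the interferon response element, 10 the AP-1 motif and 5 the PU.1 motif. An NF-kB motif was also searched, with 0 of the 45 windows and 0.411% of all windows holding it. The share among windows inside all tested regions was not computed, so no enrichment is read from these counts. The 45 also include overlapping windows of the same gene, as for Mndal. The windows of Gm19497, Gm33619, 4933404K13Rik, Gm34793, Gm32249 and Gimap3, also in regions called in all 4 pairings, had no match. The matches in the printed windows do not overlap each other, and they are letters only, with no measure of binding.

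The region over the start of Mndal (chr1:173877122-173880851) had 11.6, 12.7 and 10.3 CPM in parental WT, 13.1, 14.3 and 15.1 CPM in the WT clone, 4.05, 3.57 and 5.34 CPM in KO1, and 4.35, 3.77 and 4.66 CPM in KO2. It fell 2.98-fold (log2 -1.57 ± 0.14), the same direction as Ifi203. The region with the Gm51802 start had 12.5 ± 2.00 CPM in KO and 3.61 ± 0.558 CPM in WT (log2 1.79 ± 0.15). The region with the Gm31718 start had 34.3 ± 4.09 against 8.64 ± 1.64 CPM (log2 1.99 ± 0.14). Both regions lie in or next to loci described above. The region with the Gm31718 start also overlaps A630001O12Rik and holds its promoter window, on the plus strand. The strand of the RNA is not known, so it cannot be assigned to either gene.

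One called region holds a microRNA hairpin, that of miR-21a, a microRNA known to be abundant in many activated and malignant cells. The region chr11:86573626-86584464 covers the hairpin (86584067 to 86584158, minus strand) and the end of its host gene Vmp1. The mature sequence, from RefSeq, with the seed (bases 2 to 8) in capitals is shown for its identity.
mmu-miR-21a-5p: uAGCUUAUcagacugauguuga
The region had 16.6, 18.2 and 17.3 CPM in parental WT, 14.1, 14.2 and 14.9 CPM in the WT clone, 23.5, 25.5 and 25.6 CPM in KO1 and 32.0, 24.3 and 25.7 CPM in KO2. All KO libraries were above all WT libraries (log2 0.72 ± 0.11, adjusted p = 0.000349, edgeR). KO1 against parental WT was not called (log2 0.52), so this region was not called in all 4 pairings. The RNA can be primary microRNA transcript or Vmp1 RNA, and mature miR-21a was not measured. The gene value of Vmp1, from regions inside the gene, was called higher too, though not in all 4 pairings. It had 2.03 ± 0.365 CPM in KO and 1.28 ± 0.231 CPM in WT (log2 0.67 ± 0.15). Which RNA changed in the region was not tested.

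Annotated transcripts were also called in both directions. No table that links them to genes was used here, so 4 are given by identifier, chosen after their values were seen. ENSMUST00000089510 was at 31.9, 24.1 and 26.7 CPM in parental WT, 19.3, 16.1 and 17.1 CPM in the WT clone, 0.376, 0.280 and 0.306 CPM in KO1 and 1.97, 2.42 and 2.48 CPM in KO2. It was low in both KO lines and lower in KO1 (log2 -4.67 ± 0.16). ENSMUST00000021791 was at 14.9 to 18.2 CPM in parental WT, 30.0 to 38.0 CPM in the WT clone, 1.09 to 1.80 CPM in KO1 and 0.397 to 0.604 CPM in KO2 (log2 -4.68 ± 0.21). ENSMUST00000152594 rose from 61.0 ± 12.4 to 143 ± 28.8 CPM (log2 1.23 ± 0.06) and ENSMUST00000061721 from 21.8 ± 1.54 to 48.8 ± 4.87 CPM (log2 1.16 ± 0.06). In all 4 pairings 287 transcripts were called higher (0.576%) and 260 lower (0.522%).

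A part of these differences was seen without activation as well. Of the 286 gene values that rose, 85 were also called higher in unactivated cells, where 156 were called higher in all (3.46%), and of the 105 that fell, 37 were also called lower, of 140 (3.1%). A difference between the states was called for 14 of the 286 (4.9%) and 2 of the 105 (1.9%). For the rest, a change not called without activation is not shown to be absent there. The test of the difference between the states called 19 gene values as more positive (0.421%) and 6 as more negative (0.133%) in activated cells, and without KO2 replicate 1 the first count was 10. Against parental WT alone both counts were 0 (edgeR; 321 at an unadjusted p under 0.05), so the differences of the genes named next are not called there. With counts summed per line 0 such calls were made by edgeR (540 at an unadjusted p under 0.05), while DESeq2 on the libraries made 45 and 11. Both states use the same lines, so lasting differences between lines enter both.

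Adamts14 was higher in KO by a log2 change of 2.13 in activated and 0.77 in unactivated cells, and the difference was called (1.36 ± 0.21, adjusted p = 0.00142, edgeR). In WT it stood at 20.7 CPM without and 5.91 CPM with activation, in KO at 35.3 and 25.5 CPM. Tigit stood at 0.565 CPM in WT and 0.641 CPM in KO without activation, and its KO change was seen with activation (difference 1.67 ± 0.34). Blk was at 4.16 and 5.67 CPM without activation, then 1.59 and 4.32 CPM with it (difference 1.04 ± 0.23). Coro2a had the reverse pattern: 7.58 and 7.97 CPM without activation, 22.9 and 13.3 CPM with it (difference -0.87 ± 0.16). For Ptpn12, a phosphatase of adhesion signalling, the KO change was -0.80 without and 0.55 with activation, and for Abr, a regulator of small GTPases, -0.26 and 0.77. The activated call of Ptpn12 was lost without any of 5 libraries (0.46 to 0.52).

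**Figure D5:**
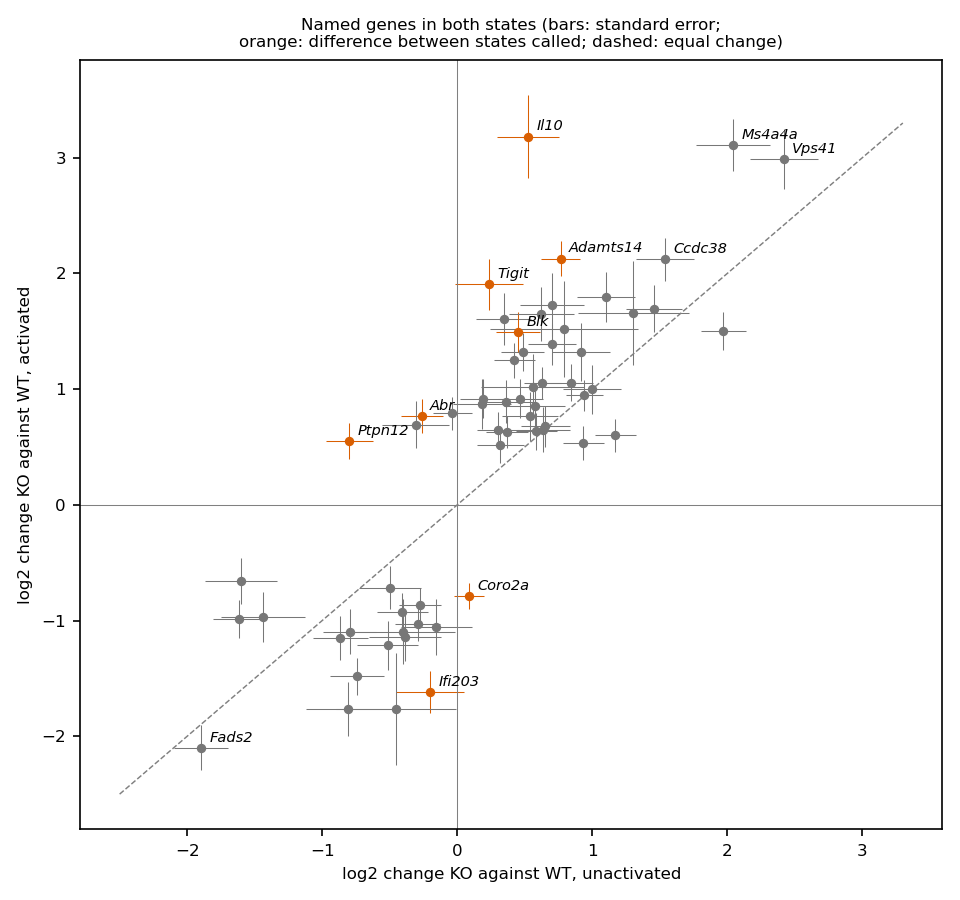
Log2 changes of KO against WT with their standard errors for the named genes, in unactivated (horizontal axis) and activated cells (vertical axis); the dashed line marks equal change and orange points are genes whose difference between the states was called. Adamts14 lies at 0.77 and 2.13 and Coro2a at 0.09 and -0.79, while Fads2 lies near the dashed line. The genes were named for their activated changes, and some for the called difference itself.

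Few gene values differed between the 2 lines of a genotype. Between KO2 and KO1 7 gene values were called (0.155%) and between the WT clone and parental WT 4 (0.0887%). KO2 was lower than KO1 in Fads2 (0.938 ± 0.150 against 2.70 ± 0.826 CPM, n = 3 each), Notch2 and Gtpbp4. The WT clone was lower than parental WT in Blk (0.934 ± 0.268 against 2.24 ± 0.377 CPM) and Il10. These 3-against-3 comparisons have fewer libraries than the 6-against-6 one, so their counts are not on the same footing.

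The T, NK and myeloid cell markers that had a gene value were low in all activated libraries. Gene values existed for 13 of 22 listed T cell, 2 of 7 NK cell and 4 of 19 myeloid markers, and the others were not measured. Summed gene values of 13 T cell markers were 3.84 to 4.33 CPM in KO and 3.38 to 4.93 CPM in WT, with Lck called higher, Tcf7 lower and Bcl11b at 0 in every activated library. Of 14 listed B cell markers, 6 had a gene value: Cd79a, Cd22, Pax5, Ebf1, Blk and Blnk. They summed to 53.4 to 71.4 CPM in KO and 34.7 to 56.0 CPM in WT. Of the 5 tested, 2 were called higher, Blk and Ebf1, and 0 lower. Ebf1 alone stood at 36.2 against 21.3 CPM, while Pax5 was not called. Of 7 listed plasma cell markers, the 4 with a gene value, Prdm1, Sdc1, Tnfrsf17 and Irf4, summed to 3.41 to 5.12 against 1.81 to 3.01 CPM. Only 2 of them were tested, Prdm1 and Irf4, and both were called higher. Irf4 alone stood at 3.65 against 1.97 CPM. The 4 myeloid markers summed to at most 1.20 CPM in any library, and the 2 NK cell markers to at most 0.352 CPM. In these bulk libraries more cells of a type and more RNA per cell cannot be told apart.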

How the data were processed

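Estimated counts and TPM per target were made by the authors and deposited as 1 table per library. kallisto 0.43.0 and build GRCm38.p5 appear in the submitters' processing notes, as does DESeq2. No source used here gives the index options or how strand was handled. Per the labels' protocols, RNA was depleted of ribosomal RNA. The deposited TPM were not used in tests. Estimated counts of 171152 targets (121400 transcripts, 49745 regions, 7 Igh elements) were rounded and tested with edgeR 4.0.16 (quasi-likelihood, TMM scaling over all targets, filterByExpr) in R 4.3.3, with 8 group means over 24 libraries. Calls are Benjamini-Hochberg adjusted p under 0.05, adjusted over all targets or over all 4510 gene values, whose totals and scaling came from all targets. Regions were placed with RefSeq GRCm38.p6 genes, a patch release other than the authors', without conversion of coordinates; 12 whole-locus entries were left out. The fit was tested on simulated data.

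The members and lists were chosen with earlier results of these data known. Named were Zmynd8 and the Igh targets; the 15 highest and 15 lowest gene values called in all 4 pairings, at 2 CPM or more and not named Gm or Rik; up to 5 called members, by p, of each list with 3 or more; the 8 highest and 8 lowest regions outside genes called in all 4 pairings at 1 CPM or more; and the 6 highest and 6 lowest called differences between states. Alternatives were other scaling, DESeq2 1.42.0, no filter, a replicate block, counts summed per line, fewer lines, activated libraries alone, and each library left out. The other 9 samples were not analysed here, and some genes are not reported here.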

Additional observations from a re-analysis of the deposited data

Results flagged for a closer look

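In 8 of 146 sets of 6 libraries, 1 library lay far from the other 5; the limit used was Dixon's 95% critical value, which chance is set to pass in about 1 in 20 sets. Pstpip2 was at 3.34 CPM in KO2 replicate 1, with the other KO libraries at 1.82 to 2.25, and at 1.24 CPM in WT clone replicate 1, with the other WT libraries at 0.512 to 0.731. Sypl was at 4.28 CPM in KO2 replicate 1, against 1.89 to 2.77 in the others. The same library had 24.9 CPM at the region chr10:60165989-60172001 near Gm51802 (others 21.6 to 22.6) and 1.27 CPM at chr17:13166943-13167514 (others 1.99 to 2.38). Fads2 was at 13.0 CPM in WT clone replicate 2 (others 4.64 to 7.02), Birc2 at 5.17 CPM in KO1 replicate 2 (others 3.20 to 3.85) and Ltbp1 at 1.03 CPM in WT clone replicate 3 (others 0.315 to 0.562).

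The genes picked by the naming rule, and the regions outside genes picked by their rank, were checked for a KO change that differed between the states. The test of the difference itself called 9 of them. For Adamts14, Tigit, Ptpn12, Blk, Abr and Coro2a this outcome was fixed in advance. A called difference was among the rules that named them. The log2 difference was 1.36 for Adamts14, 1.67 for Tigit, 1.35 for Ptpn12, 1.04 for Blk, 1.03 for Abr and 2.66 for Il10. It was -0.874 for Coro2a and -1.42 for Ifi203. The region chr12:113314446-113315182 had a difference of 7.11, its KO change being -2.85 with and -9.96 without activation. Its levels without activation are not given here, and whether counts near 0 set the size of that change was not tested. Outside this check, the test also called the regions inside Igha (-0.89) and over Ighm and the J segments (1.18). Those near Ighg3 (3.46) and over the start of Mndal (-0.93) were called too. So were the Igh mu enhancer element (-1.32) and the transcript ENSMUST00000152594 (0.57).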

How the results depend on the processing

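Counts are given as higher then lower. Of 91 named genes and regions, 42 kept call and direction in every setting and 66 on leaving out each library; 31 lost the call with counts summed per line, 34 against parental WT alone and 30 with KO1 alone. RLE scaling and the replicate block changed none of these calls. Same-numbered libraries correlated at 0.0226 to 0.157 over 18 pairs. Pairs of replicate 3 lay at 0.117 to 0.153, but most pairs of replicates 1 and 2 were weaker than 0.1, the limit asked of every pair, so the numbers were not taken to pair the samples. That each of 12 libraries correlated best with its own number is a hint from the data that same-numbered cultures share something. With the replicate block, 312 and 119 gene values were called, and 34 and 11 differed between states.

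Leaving out 1 library at a time gave 199 to 273 and 84 to 112 gene values, 502 to 580 and 109 to 134 regions, and 1227 to 1412 and 1379 to 1583 transcripts. In all 4 pairings it gave 22 to 35 and 4 to 9 gene values and 85 to 114 and 6 to 11 regions. Differences between states numbered 10 to 20 and 4 to 8 gene values and 39 to 50 and 12 to 16 regions. The 3' regulatory region log2 ratio was 2.05 to 2.22.

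With DESeq2, 235 regions fell, 26 in all 4 pairings, and 138 and 37 regions and 45 and 11 gene values differed between states. Without a filter, 83 and 7 regions held in all 4 pairings, and 26 and 7 regions and 56 and 23 gene values differed between states. With counts summed per line, which leaves 2 against 2 lines, 116 and 97 transcripts, 51 regions higher and 1 lower, and 175 gene values higher were called. Then 0 and 0 regions and 0 and 0 gene values differed between states by edgeR (950 and 540 at an unadjusted p under 0.05). The 3' regulatory region log2 ratio of 2.15 had an exact permutation p of 0.333, the smallest possible.

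With KO1 alone, 934 and 856 transcripts, 349 and 48 regions and 134 and 45 gene values were called, 20 and 6 regions and 3 and 3 gene values differed between states, and Gtpbp4 reversed to 0.21. With KO2 alone, 23 and 9 regions differed between states. Against parental WT alone, 823 and 1241 transcripts, 315 and 88 regions and 136 and 67 gene values were called, and 7 and 5 regions and 0 and 0 gene values differed between states (edgeR; 321 gene values at an unadjusted p under 0.05). Against the WT clone alone, 12 regions had a lower difference. Self-scaling gave 11 gene values with a lower difference, and 400 regions lower, 36 in all 4 pairings and 31 with a lower difference. The causes of these shifts were not tested. No setting varied the depth, so its effect on genes below 1 CPM in both genotypes, such as Prdm1, Ifih1 and Il7r, was not measured.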
